A study of Mus musculus with 170 samples.

Results

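The tumour necrosis factor (TNF) superfamily is a set of inflammatory, costimulatory and death-signalling ligands and the receptors that bind them. It was followed here in lung and heart after a dose of wildfire smoke particles or of lipopolysaccharide (LPS). The animals were females of CD-1, a stock of mice kept outbred. Members were taken by gene symbol: every gene named Tnfsf or Tnfrsf with a number, plus Tnf, Lta, Ltb, Ltbr, Cd40, Cd40lg, Cd27, Cd70, Fas and Fasl. This gave 40 of the 21450 genes in the count table, of which 17 were ligands and 23 were receptors. They were read by 57 of the 30146 probes, with 27 members read by a single probe and none by more than 3, and the probes of a gene were summed. In lung, 32 members had enough counts to be tested (11 ligands and 21 receptors), against 15 in heart.

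The mice received particulate matter by oropharyngeal aspiration, in 50 µL at 2 mg/mL, and tissue was taken 4 h or 24 h later. The particles came from red oak, peat, pine needles, pine or eucalyptus, each burned smoldering (RedOakSmolder, PeatSmolder, PineNeedlesSmolder, PineSmolder and EucalyptusSmolder in the labels) or flaming (RedOakFlame, PeatFlame, PineNeedlesFlame, PineFlame and EucalyptusFlame). Saline was the negative control. LPS, a bacterial outer-membrane product that signals through Toll-like receptor 4, was the positive control for inflammation. The LPS dose and the age of the animals were not given in the sources used here. Lungs covered all 12 treatments at both times. Hearts were taken at 24 h only, from the saline, RedOakSmolder, RedOakFlame, PeatSmolder and PeatFlame animals whose lungs were also profiled. Each group held 6 animals, except the LPS groups, which held 4.

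The 170 libraries held between 4426180 and 8046021 counts each. All hearts and 53 of the 70 lungs of 24 h came from plate 2, and 65 of the 70 lungs of 4 h from plate 1, so plate was a term in the lung model. The lungs of 4 h from plate 2 were all PineNeedlesSmolder, and the PineNeedlesSmolder lungs of 24 h all came from plate 1. At 4 h plate 2 thus held no flaming lung. By the animal numbers in the titles, smoldering groups preceded saline and flaming groups followed it at each time. The order of the animals and the burning phase thus cannot be told apart. Tissue markers followed the labels: Sftpc, the surfactant gene of alveolar type 2 cells, was 2147 to 6252 CPM (counts scaled for library size) in saline lungs and 1.93 to 4.41 CPM in saline hearts. Myh6, a cardiac myosin gene, was 2463 to 4671 CPM in those hearts and 22 to 95.8 CPM in those lungs. In 6 lungs of 24 h, all from smoke groups, fewer than 13000 genes had a count. Results that rest on them are given with and without them.

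Members of this family work as trimers. The ligands are type II membrane proteins, many of which can be released from the cell surface, and they cluster receptors that carry cysteine-rich repeats. Receptors with a death domain, such as Tnfrsf1a (TNF receptor 1) and Fas, can recruit adaptors that lead to apoptosis or to NF-kB signalling. Receptors without one, such as Tnfrsf1b (TNF receptor 2), Cd40 and Tnfrsf9 (4-1BB), bind TRAF adaptors and activate NF-kB and mitogen-activated kinases. In lung, TNF is made largely by macrophages and other myeloid cells soon after contact with microbial products. It induces adhesion molecules on endothelium and chemokines that draw neutrophils. Tnfrsf12a (Fn14), the receptor for the TNF-like ligand Tnfsf12 (TWEAK), is known as a gene that is induced in injured epithelium, fibroblasts and muscle.

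The results below turn on Tnf, Tnfrsf9 and Tnfrsf12a, so the 100 bases upstream of their annotated starts are shown (RefSeq, GRCm38.p6), read 5′ to 3′ on the gene's own strand. Tnf lies at chr17:35202008-35202107 on the minus strand, Tnfrsf12a at chr17:23677450-23677549 on the minus strand, and Tnfrsf9 has a start at chr4:150920055-150920154 and a second one at chr4:150927899-150927998, both on the plus strand. Capitals mark matches to the NF-kB consensus and to the AP-1 motif TGANTCA, searched on both strands.
Tnf: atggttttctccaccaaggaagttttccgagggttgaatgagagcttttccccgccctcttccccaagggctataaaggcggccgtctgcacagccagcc
Tnfrsf12a: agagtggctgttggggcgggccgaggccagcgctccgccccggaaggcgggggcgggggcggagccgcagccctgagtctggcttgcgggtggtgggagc
Tnfrsf9, upstream start: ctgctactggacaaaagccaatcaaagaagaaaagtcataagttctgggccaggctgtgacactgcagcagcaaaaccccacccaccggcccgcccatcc
Tnfrsf9, downstream start: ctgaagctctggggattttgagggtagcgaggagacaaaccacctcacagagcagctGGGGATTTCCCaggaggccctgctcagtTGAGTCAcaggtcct
The downstream Tnfrsf9 start carried overlapping NF-kB matches 43 to 33 bases before it and an AP-1 match 15 to 9 bases before it. The other windows held neither, which says only that these letters are not in them. Over windows of 300 bases (250 before and 50 after a start), the NF-kB consensus was found in 8.46% of 32851 promoters and in 4 of the 34 promoters of the 30 members that matched the table (Ltb, Tnfrsf25, Tnfrsf8 and Tnfrsf9). TGANTCA was found in 7.81% of all promoters and in 7 of those 34, belonging to Fas, Tnfrsf8, Tnfrsf9, Tnfsf13, Tnfsf13b and Tnfsf14.

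**Figure D1:**
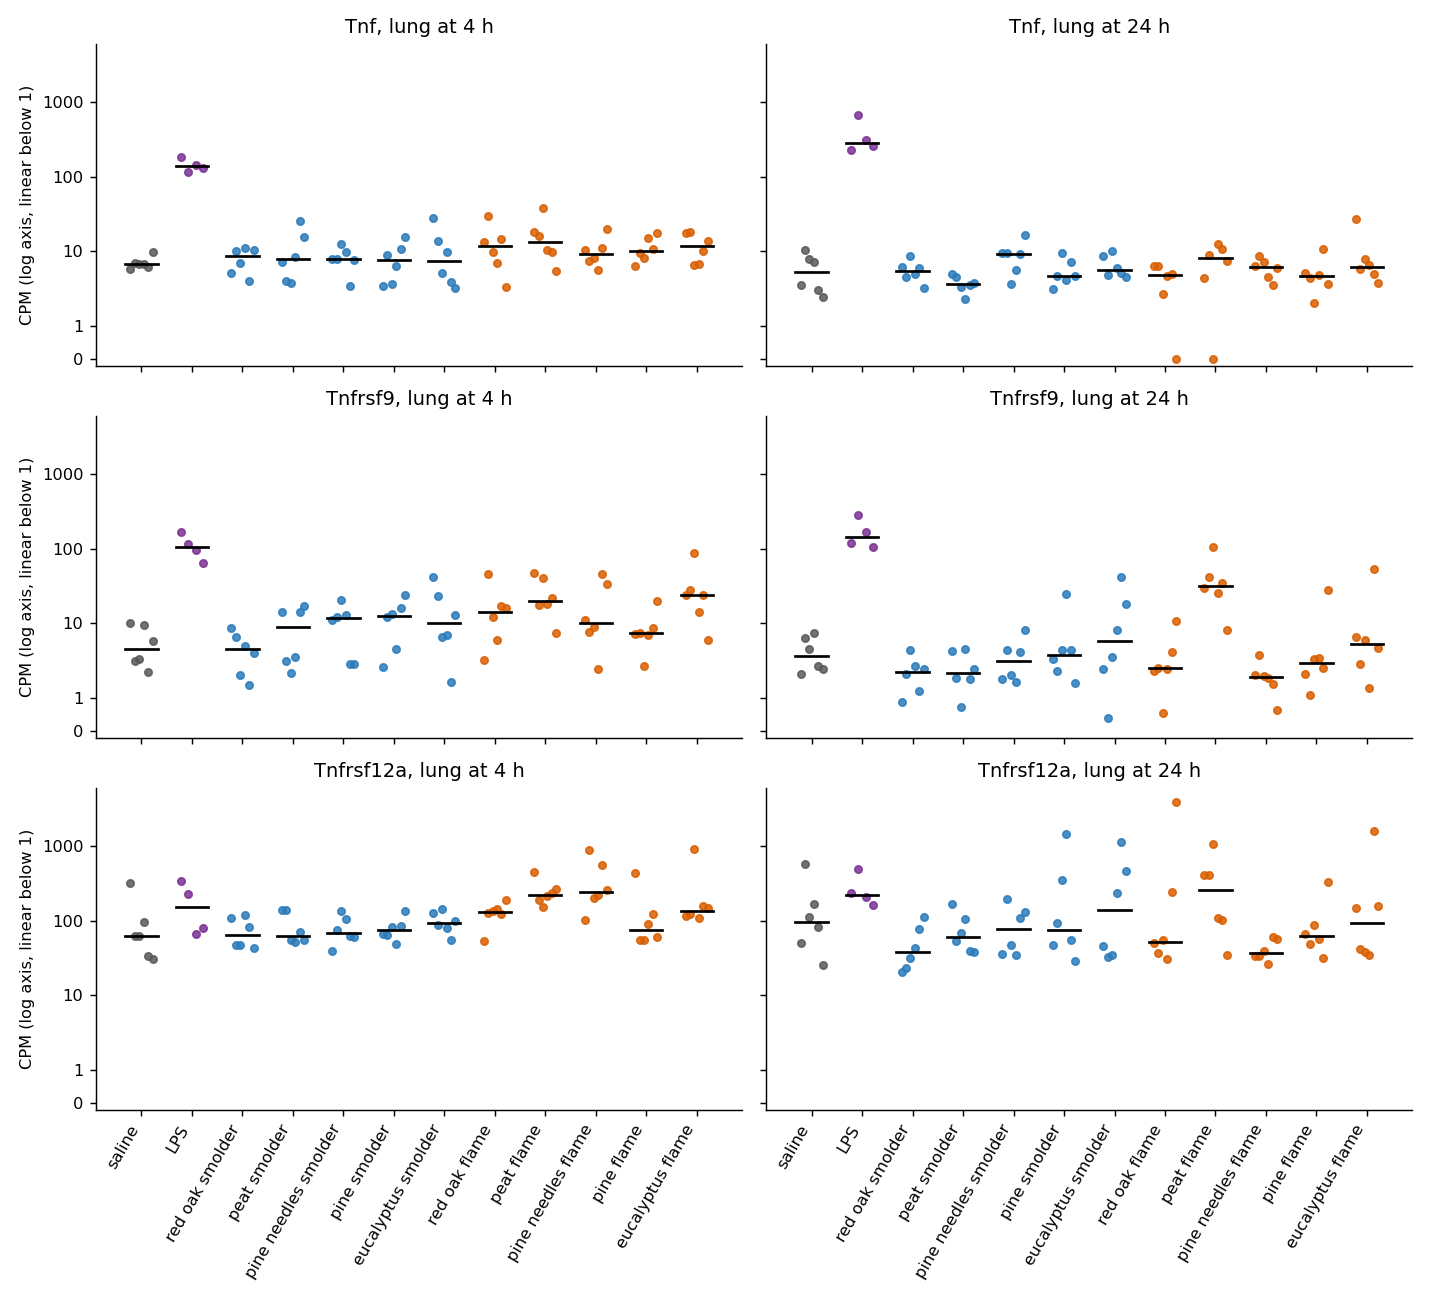
CPM (log axis, linear below 1) of Tnf, Tnfrsf9 and Tnfrsf12a in every lung library at 4 h and 24 h, by treatment; points are animals, black lines are medians, grey is saline, purple LPS, blue smoldering and orange flaming smoke. Tnf in the 4 LPS lungs lies between 116.6 and 181 CPM at 4 h, above each of the 60 smoke lungs, whose highest value is 38.5 CPM.

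LPS at 4 h was compared with saline to ask which members respond to a known inflammatory stimulus. Of the 32 members tested, 8 rose and 1 fell (edgeR quasi-likelihood F test, Benjamini-Hochberg adjusted p under 0.05 over 14458 genes). Of all genes tested, 8.98% were called, 5.48% upward and 3.49% downward. The median log2 change was 0.70 over the members and −0.04 over all genes. Tnf, the founding ligand, had a lowest, median and highest level of 5.74, 6.69 and 9.80 CPM in the 6 saline lungs, and reached 181, 116.6, 145 and 129.5 CPM in the 4 LPS lungs. The groups did not overlap, and the log2 change was 4.34 ± 0.53 (SE, adjusted p = 7.6e-11), or 20.4-fold. The other ligand that rose was Tnfsf14 (LIGHT), a T cell and myeloid ligand of Tnfrsf14 and Ltbr. It was 0, 0.0777 and 0.779 CPM (lowest, median, highest) in saline and 0, 0.30, 3.82 and 3.58 CPM under LPS, so only 2 of the 4 LPS lungs stood above all saline lungs. Its log2 change was 3.23 ± 1.01 (adjusted p = 0.0254). This call was lost without LPS replicate 3 (adjusted p = 0.157) or 4 (0.112) and without saline replicate 1 (0.0606), 3 (0.0509), 4 (0.0614) or 5 (0.0625), and without saline replicate 2 the log2 change was 4.51. The Tnfsf14 call was also lost with no filter on low counts (adjusted p = 0.0855). Without the 4 h lungs with the fewest genes with a count, named below, its adjusted p was 0.0531.

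Among receptors at 4 h, 6 of 21 rose and 1 fell. Tnfrsf9, a costimulatory receptor of activated T and NK cells that is also induced in myeloid and endothelial cells, was 2.23, 4.52 and 9.94 CPM (lowest, median, highest) in saline. Under LPS it was 169, 116.6, 95.2 and 64.9 CPM, with every LPS lung above every saline lung (log2 change 4.30 ± 0.79, adjusted p = 2.02e-05). Cd40, the receptor through which T cells license antigen-presenting cells, went from 17.6, 39.7 and 42.6 CPM to 166, 269, 196 and 152 CPM (log2 change 2.45 ± 0.34, adjusted p = 7.74e-09). The Cd40 ranges did not overlap either. Tnfrsf1b went from 8.99, 23.1 and 26.2 CPM to 76.1, 74.4, 90.2 and 90.7 CPM (log2 change 2.00 ± 0.29, adjusted p = 6.51e-08). Fas, the death receptor of Fasl, went from 24.5, 72.8 and 115.98 CPM to 142, 373, 273 and 309 CPM (log2 change 1.94 ± 0.29, adjusted p = 1.53e-07). For these receptors too each LPS lung stood above each saline lung.

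The remaining receptor calls at 4 h were smaller or rested on low counts. Tnfrsf11a (RANK), the receptor of the osteoclast ligand RANKL, was 5.45, 7.80 and 27.9 CPM in saline and 50.7, 26.9, 21.1 and 23.2 CPM under LPS. Its log2 change was 1.53 ± 0.31 (adjusted p = 0.000107), though 1 of 4 LPS lungs exceeded the highest saline lung. Tnfrsf14 (HVEM), a receptor of Tnfsf14, was 0.159, 1.33 and 2.03 CPM in saline and 3.75, 5.11, 3.82 and 2.26 CPM under LPS, without overlap (log2 change 1.57 ± 0.48, adjusted p = 0.0217). This call was lost without LPS replicate 2 (adjusted p = 0.0978), saline replicate 2 (0.0585) or saline replicate 4 (0.0707). Tnfrsf19 (TROY), a receptor of epithelial and neural progenitors, was the member that fell, from 4.35, 8.12 and 11.5 CPM to 3.58, 5.26, 1.66 and 1.32 CPM. In 3 of the 4 LPS lungs it lay below every saline lung (log2 change −1.42 ± 0.44, adjusted p = 0.0239). That call was lost without LPS replicate 3 (adjusted p = 0.141), LPS replicate 4 (0.143) or saline replicate 3 (0.071).

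Some members missed the threshold at 4 h although every LPS lung stood above every saline lung. Tnfrsf1a was 165, 194 and 240.1 CPM (lowest, median, highest) in saline and 405, 482, 317 and 317 CPM under LPS (log2 change 0.92 ± 0.33, adjusted p = 0.0672). Tnfsf15 (TL1A), an endothelial and myeloid ligand, was 0.636, 2.04 and 2.64 CPM in saline and 3.58, 5.56, 4.15 and 5.08 CPM under LPS (1.31 ± 0.73, adjusted p = 0.322). Tnfrsf12a did not separate: saline spanned 30.6 to 322 CPM with a median of 62.2 CPM, and the LPS lungs read 341, 228, 66.1 and 78.5 CPM (0.83 ± 0.85, adjusted p = 0.68). The ligand Tnfsf10 (TRAIL), which kills through Tnfrsf10b, was 3.25, 36.6 and 69.5 CPM in saline and 51.9, 113.7, 206 and 124.4 CPM under LPS (1.78 ± 0.64, adjusted p = 0.0644).

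At 24 h, 12 members rose under LPS and 1 fell, against 12.1% of all genes called (7.58% upward, 4.51% downward). The median log2 change was 0.99 over the members and −0.12 over all genes. Tnf was 2.41, 5.33 and 10.3 CPM (lowest, median, highest) in saline and 227, 668, 311 and 259 CPM under LPS, a log2 change of 6.01 ± 0.56 (adjusted p = 2.21e-16), or 64.2-fold. Ltb, the membrane anchor of the lymphotoxin heterotrimer, went from 11.8, 32.5 and 56 CPM to 95.3, 250.2, 124.6 and 59.6 CPM (log2 change 1.97 ± 0.37, adjusted p = 1.86e-05). Neither ligand overlapped between groups. Fasl, the ligand that cytotoxic T and NK cells use to kill, was 3.68, 8.02 and 17 CPM in saline and 39.3, 98.9, 42.1 and 36.9 CPM under LPS (log2 change 2.75 ± 0.70, adjusted p = 0.0026). Tnfsf4 (OX40L), a costimulatory ligand of antigen-presenting cells, was at 0 in 5 of 6 saline lungs and at 0.589 CPM in saline replicate 1, and reached 5.13, 9.99, 6.25 and 3.46 CPM under LPS. The highest smoke lung of 24 h had 1.67 CPM and the highest saline lung of 4 h 1.09 CPM. Its log2 change of 5.71 ± 1.11 (adjusted p = 3.57e-05) rested on the counts of that saline replicate, without which it was 8.36. Over all libraries the median Tnfsf4 count was 0. By these levels Tnfsf4 passed the filter on low counts through the LPS lungs of 24 h, so its rise was in part set by that filter.

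The receptors that rose at 24 h included those of 4 h and further death and costimulatory receptors. Tnfrsf1b was 14.3, 21.8 and 27.8 CPM in saline and 139.4, 327, 138.75 and 85.7 CPM under LPS (log2 change 2.98 ± 0.30, adjusted p = 9.08e-15). Tnfrsf9 was 2.06, 3.64 and 7.31 CPM in saline and 117.3, 279, 165 and 106.5 CPM under LPS (5.38 ± 0.83, adjusted p = 1.44e-07). Cd40 was 16.8, 40.2 and 56 CPM in saline and 152, 335, 164 and 145 CPM under LPS (2.35 ± 0.34, adjusted p = 1.58e-08). These 3 receptors were higher in each LPS lung than in each saline lung. Tnfrsf14 went from 1.92, 3.81 and 6.50 CPM to 9.20, 17.9, 12 and 11.4 CPM (1.79 ± 0.46, adjusted p = 0.00273), and Tnfrsf11a from 8.67, 11.6 and 16.4 CPM to 30.6, 31, 26.2 and 22.9 CPM (1.19 ± 0.31, adjusted p = 0.00299). Fas went from 37, 48.4 and 64.5 CPM to 73.4, 121.9, 121.9 and 83.4 CPM (1.01 ± 0.29, adjusted p = 0.0107). The Fas call was lost without LPS replicate 2 (adjusted p = 0.0633) or 3 (0.0518), although none of the ranges of these receptors overlapped.

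Tnfrsf1a and Tnfrsf4 (OX40), the receptor of Tnfsf4 on activated T cells, rose with overlap at 24 h. Tnfrsf1a was 159, 270.4 and 539.8 CPM in saline and 511, 774, 606 and 535 CPM under LPS (log2 change 1.08 ± 0.33, adjusted p = 0.0181), with 2 of 4 LPS lungs above all saline lungs. The Tnfrsf1a call was lost without LPS replicate 2 (adjusted p = 0.0709) or saline replicate 5 (0.0543) or 6 (0.0564), and when the 24 h lungs were fitted alone (0.13). Tnfrsf4 was 2.11, 4.63 and 9.86 CPM in saline and 8.84, 18.4, 7.94 and 13.6 CPM under LPS (1.24 ± 0.43, adjusted p = 0.0425), again with 2 of 4 above. Its call was lost without LPS replicate 1 (adjusted p = 0.0545), 2 (0.222) or 4 (0.0722), without saline replicate 1 (0.0778), 2 (0.0633), 3 (0.0667) or 6 (0.12), with no filter on low counts (0.0611) and with 24 h lungs alone (0.133). Tnfrsf19, named because it was the single member lower at 24 h as at 4 h, had a log2 change of −1.20 ± 0.42 (adjusted p = 0.0464). That call was lost without any single LPS lung (adjusted p 0.0683 to 0.141), without saline replicate 2 (0.139), 4 (0.0827) or 5 (0.0566), with no filter (0.0629) and with 24 h lungs alone (0.145).

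Of the 12 members that rose at 24 h, 11 were highest in LPS replicate 2. The same count was not made over all genes that rose, so it is not read as a trait of the family. Tnfrsf12a read 236, 493, 206 and 160.3 CPM in the LPS lungs at 24 h, inside the saline range of 25.3 to 583 CPM (log2 change 0.87 ± 0.86, adjusted p = 0.603). Its ligand Tnfsf12 had a log2 change of −0.10 at 4 h and −0.44 at 24 h, neither called. Tested as a difference of the LPS effects at the 2 times, only Tnfsf4 differed, by 7.30 ± 1.76 on the log2 scale (adjusted p = 0.0187, against 0.581% of all genes called). Tnfsf4 entered the tests through its LPS lungs of 24 h, so this difference is not free of the filter on low counts. That difference was lost without 24 h LPS replicate 2 (adjusted p = 0.0703), 4 h LPS replicate 1 (0.0526) or 2 (0.0662) or 4 h saline replicate 2 (0.175), with DESeq2 (0.0642) and with no filter (0.0801), and was 9.95 without 24 h saline replicate 1. DESeq2 called Tnfrsf4 in its place, and without the low-detection lungs Fasl, Tnfrsf4 and Tnfsf4 were called. The change in the Tnf effect was 1.67 ± 0.71 (adjusted p = 0.453) and that of Fasl 2.69 ± 1.01 (0.305).

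**Figure D2:**
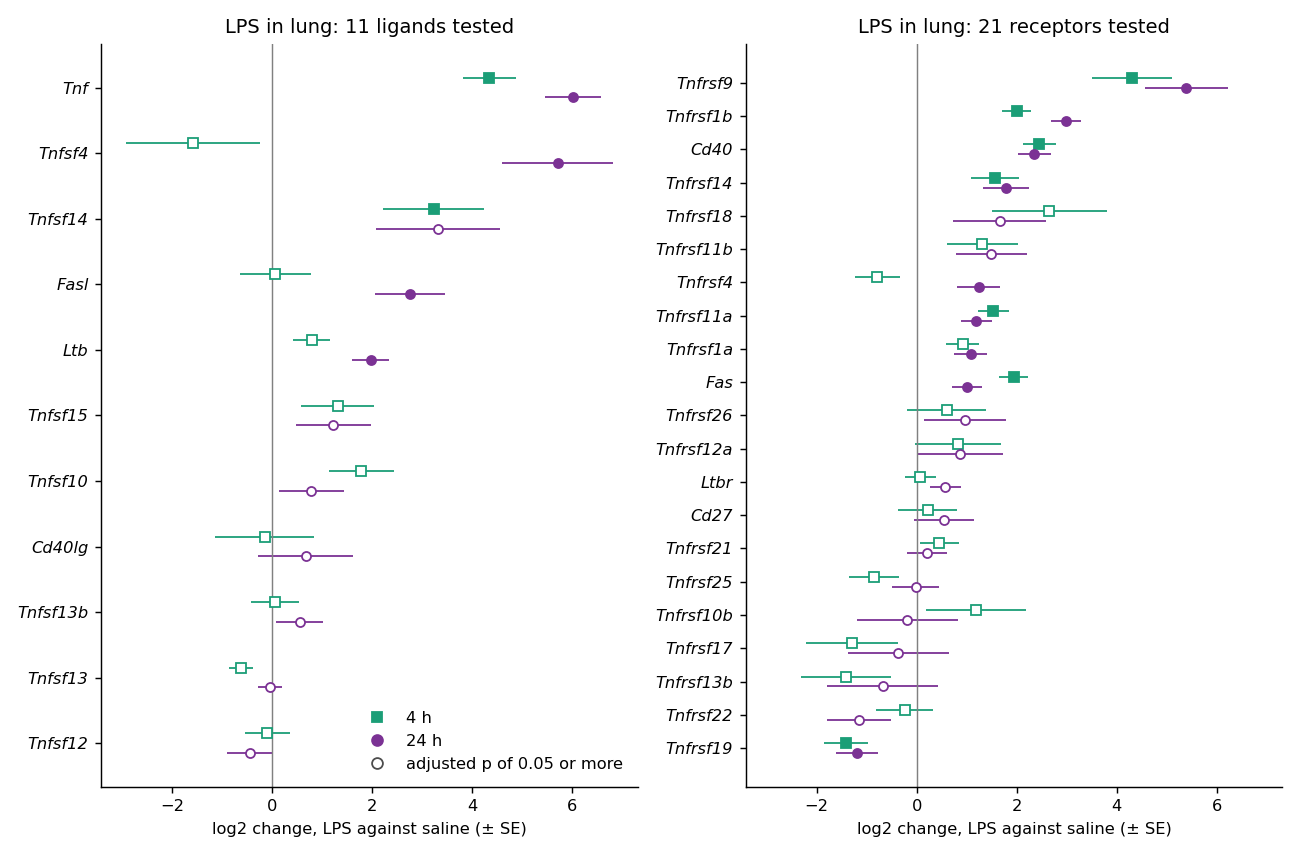
Log2 change (± SE) of LPS against saline in lung for the 11 ligands and 21 receptors tested, with green squares for 4 h, purple circles for 24 h and filled symbols where the adjusted p is under 0.05. Tnf and Tnfrsf9 lie above 4 at both times, and Tnfrsf19 is the filled symbol left of 0 at both.

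By role, 2 of 11 ligands rose at 4 h and 4 of 11 at 24 h, beside 5.48% and 7.58% of all genes. Death-domain receptors gave 1 of 5 and then 2 of 5, receptors of T cell costimulation 1 of 4 and then 2 of 4, and other TRAF-binding receptors 4 of 8 at each time, with 1 of these 8 lower at each (3.49% and 4.51% of all genes were lower). Neither of the 2 decoy receptors, which bind ligand without signalling, nor of the 2 tested receptors of B and plasma cells was called at either time. Of 25 known ligand and receptor pairs, 15 had both partners tested. Both partners rose in 2 pairs at 4 h (Tnf with Tnfrsf1b, Tnfsf14 with Tnfrsf14) and in 4 at 24 h (Tnf with Tnfrsf1a, Tnf with Tnfrsf1b, Tnfsf4 with Tnfrsf4, Fasl with Fas). The calls of Tnfsf14 and Tnfsf4, counted here among ligands and pairs, rest on low counts, with the limits given above.

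Genes that act below these receptors were read from lists of pathway members. Of all genes, 5.48% rose at 4 h and 7.58% at 24 h, with median log2 changes of −0.04 and −0.12. Whether the listed genes moved through these receptors or by LPS signalling without them was not tested. All 11 NF-kB subunits and inhibitors rose at 4 h and 10 of 11 at 24 h, with median log2 changes of 1.84 and 1.76. Nfkbia, the inhibitor that NF-kB itself induces, changed by 2.38 and 2.10. Of 14 tested genes known to respond to TNF, 13 rose at 4 h and 11 at 24 h (medians 3.01 and 3.37), among them the neutrophil chemokine gene Cxcl1 by 5.40 and 5.74 and, at 24 h, Il6 by 6.16. Of 32 receptor adaptors and signalling enzymes, 9 rose at each time (medians 0.39 and 0.63). They included the ubiquitin-editing feedback gene Tnfaip3, by 3.34 and 3.19, and Mlkl, the effector of necroptosis, by 2.37 and 3.52. Of 14 cell death genes downstream of death receptors 4 rose at each time, with Bid, which links Fas to mitochondria, by 1.49 and 1.67. Of 6 tested genes of ligand and receptor shedding 2 rose at each time, among them Rhbdf2, a partner of the TNF sheddase ADAM17, by 1.05 and 1.71. Of 4 tested relatives outside the symbol rule, none rose at 4 h and Relt rose at 24 h (1.87).

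Other cell types' markers moved in the same lungs, where 5.48% of all genes rose and 3.49% fell at 4 h, and 7.58% and 4.51% at 24 h. All 8 neutrophil markers rose at both times: their summed level was 270.7 to 1153 CPM in saline and 4566 to 13307 CPM under LPS at 4 h, and 104.1 to 294 CPM against 3247 to 5349 CPM at 24 h. Monocyte markers rose in 3 of 6 at 4 h and 5 of 6 at 24 h. NK cell markers rose in 0 of 7 at 4 h and in 4 of 7 at 24 h, when their sum was 3.75 to 43.2 CPM in saline and 52.3 to 158 CPM under LPS. No T cell marker of 8 was called at either time, and 2 of 7 B cell markers fell at 4 h. Airway epithelial markers fell in 1 and then 3 of 6, endothelial markers in 0 and then 2 of 7, and cardiomyocyte markers in 0 and then 4 of 7. In bulk tissue, fewer cells of a type and less RNA per cell cannot be told apart. The part of these cells in the members' changes was not tested.

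LPS was also set against the mean of the 10 smokes, because the study used it as a benchmark. At 4 h, 10 of 32 members were higher under LPS than under the mean smoke and 1 was lower (11% of all genes called, 7.15% upward and 3.89% downward). Tnf differed by 3.74 on the log2 scale (adjusted p = 2.29e-23), and Tnfsf10, which had missed the threshold against saline, by 2.03 (adjusted p = 0.00012). At 24 h, 15 members were higher and none lower (20.5% of all genes called, 12.5% upward and 8.02% downward). Tnf differed by 5.94 (adjusted p = 2.11e-44) and Tnfsf4 by 4.96. Tnfsf4 passed the filter on low counts through these LPS lungs, so its difference was in part set by that filter. Tnfrsf11b (osteoprotegerin), the decoy for RANKL, differed by 1.60 (adjusted p = 0.0127), and by 0.52 (adjusted p = 0.69) without LPS replicate 2. These contrasts share the LPS lungs with those against saline, so they are not separate evidence.

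No member was called in any of the 10 smoke contrasts at 4 h by the edgeR test (0 of 32 in each), where 0.0456% of all gene tests were called. Of the 320 member tests, 29 had an unadjusted p under 0.05, and DESeq2 called 0. Over the 60 smoke lungs Tnf ran from 3.22 to 38.5 CPM with a median of 9.70 CPM. None reached the lowest LPS lung at 116.6 CPM, while 28 of 60 stood above the highest saline lung. Tnfrsf9 stood above all saline lungs in 32 of 60, Tnfrsf1b in 36, Tnfrsf1a in 32 and Cd40 in 27. Such counts were not made over all genes, so they are not read as a rise of these members. Tnfrsf12a did so in 5 of 60, since saline replicate 1 read 322 CPM beside a saline median of 62.2 CPM. The mean of the 10 smokes against saline gave no call for any gene (0.0%). In that contrast 18 of the 32 members were above 0, with a median log2 change of 0.10 (−0.03 over all genes).

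PeatFlame at 4 h had 6 members with an unadjusted p under 0.05 and none after adjustment (0.297% of all genes called). Tnfrsf9 was 7.34, 20.1 and 46.7 CPM (lowest, median, highest), above all saline lungs in 5 of 6 (log2 change 2.17 ± 0.71, adjusted p = 0.292). Tnfrsf1b was 30.3, 33.9 and 46.1 CPM, above all saline lungs in 6 of 6 (0.78 ± 0.27, adjusted p = 0.353). Tnf was 5.44, 13.2 and 38.5 CPM, above in 4 of 6 (1.22 ± 0.46, adjusted p = 0.52). Of the 14 genes known to respond to TNF, 3 rose with PeatFlame: Csf2 by 2.60, Cxcl2 by 3.30 and Cxcl1 by 2.41. None of the 8 neutrophil markers was called, and their sum was 321 to 3384.5 CPM. After EucalyptusFlame the Tnfrsf9 median was 24.0 CPM, with a log2 change of 2.43 ± 0.71 (adjusted p = 0.195).

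The count of 0 at 4 h changed when the spread was estimated from other lungs. With the 4 h lungs fitted alone, 7 member calls appeared, all upward (0.921% of all gene tests called). They were Tnfrsf9 (2.43, adjusted p = 0.0397) and Tnfrsf1a (0.57, adjusted p = 0.0139) for EucalyptusFlame, and Tnfrsf1a (0.53, adjusted p = 0.0275) for PeatFlame. PineNeedlesFlame gave the others: Tnfrsf12a (1.90, adjusted p = 0.0293), Tnfrsf18 or GITR, a T cell receptor (3.19, adjusted p = 0.0356), Tnfrsf1a (0.59, adjusted p = 0.011) and Tnfsf13b or BAFF, the B cell survival ligand (1.07, adjusted p = 0.0309). All 7 belonged to flaming smokes. In the fit of both times, calls over all genes at 4 h numbered 43 for PeatFlame, 13 for EucalyptusFlame and 4 for PineNeedlesFlame. They numbered 2 for RedOakFlame, 1 for PineFlame, 3 for PineNeedlesSmolder and 0 for each other smoldering smoke. With the 4 h lungs alone this split was not made over all genes. The 7 calls are thus not read as a trait of the family. Without the 6 low-detection lungs of 24 h, Tnfrsf9 alone was called, for EucalyptusFlame (2.44, adjusted p = 0.0248; 0.206% of all gene tests called). Tnfrsf18 rested on low counts, with a median count of 3 over all libraries. EucalyptusFlame and PineNeedlesFlame each held a 4 h lung of few genes with a count, named below. The 4 h lungs alone were not fitted without these. The fit of both times without them gave 2.01 for Tnfrsf9, 2.26 for Tnfrsf12a, 2.80 for Tnfrsf18 and 1.31 for Tnfsf13b, none called.

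Flaming was then compared with smoldering over the 5 fuels, 30 lungs a side. At 4 h, 3 of 32 members were higher after flaming smoke and none lower, all of them receptors (2.39% of all genes called, 1.72% upward and 0.671% downward). Tnfrsf12a averaged 229 CPM after flaming and 83.4 CPM after smoldering smoke. In 17 of 30 flaming lungs it exceeded the highest smoldering lung at 143 CPM (log2 difference 1.5 ± 0.36, adjusted p = 0.0105). Its flaming and smoldering medians were 130.7 and 64.8 CPM for red oak, 224 and 62.5 CPM for peat, and 241 and 68.9 CPM for pine needles. They were 134.4 and 92.7 CPM for eucalyptus, and 74.7 and 74.4 CPM for pine, the fuel without a gap in medians. The 3 lungs of 4 h with the fewest genes with a count were PineNeedlesFlame replicate 2 (13436 genes), EucalyptusFlame replicate 3 (13734) and saline replicate 1 (14108), against a median of 15309 in flaming and 15228.5 in smoldering lungs. Tnfrsf12a was high in all 3, at 893, 899 and 322 CPM. Without these 3 lungs none of the 3 receptors passed the threshold (0.969% of all genes called), with 6 of 32 members at an unadjusted p under 0.05. The Tnfrsf12a difference was then 1.21 ± 0.35 (adjusted p = 0.0614), that of Tnfrsf1b 0.40 (adjusted p = 0.0669) and that of Tnfrsf9 0.94 (adjusted p = 0.121). The part of RNA quality in these differences was not tested. The Tnfrsf12a call remained without PineNeedlesFlame replicate 2 alone (adjusted p = 0.0174) or EucalyptusFlame replicate 3 alone (0.0381), and under the other alternatives run.

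Tnfrsf9 differed by 1.04 ± 0.31 (adjusted p = 0.0469) between flaming and smoldering smokes, and 4 of the 30 flaming lungs exceeded the highest smoldering one. The flaming median was higher for red oak (14 against 4.48 CPM), peat (20.1 against 8.81 CPM) and eucalyptus (24.0 against 9.96 CPM). It was lower for pine needles (10 against 11.6 CPM) and pine (7.32 against 12.6 CPM). The Tnfrsf9 call was lost without EucalyptusFlame replicate 3 (adjusted p = 0.119), PeatFlame replicate 1 (0.0703), 3 (0.0607) or 5 (0.0503), with DESeq2 size factors (0.0601), no filter (0.0608), no plate term (0.0771) and 4 h lungs alone (0.102). Tnfrsf1b differed by 0.44 ± 0.12 (adjusted p = 0.0282). Its median was higher after flaming for all 5 fuels, 29.3 against 20.1 CPM for red oak and 33.9 against 27.4 CPM for peat. The Tnfrsf1b call was lost without EucalyptusFlame replicate 3 (adjusted p = 0.071), with DESeq2 size factors (0.0733) and with 4 h lungs alone (0.0633). Tnfrsf1a missed the threshold (0.40 ± 0.14, adjusted p = 0.0948), though 12 of the 30 flaming lungs exceeded the highest smoldering one.

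**Figure D3:**
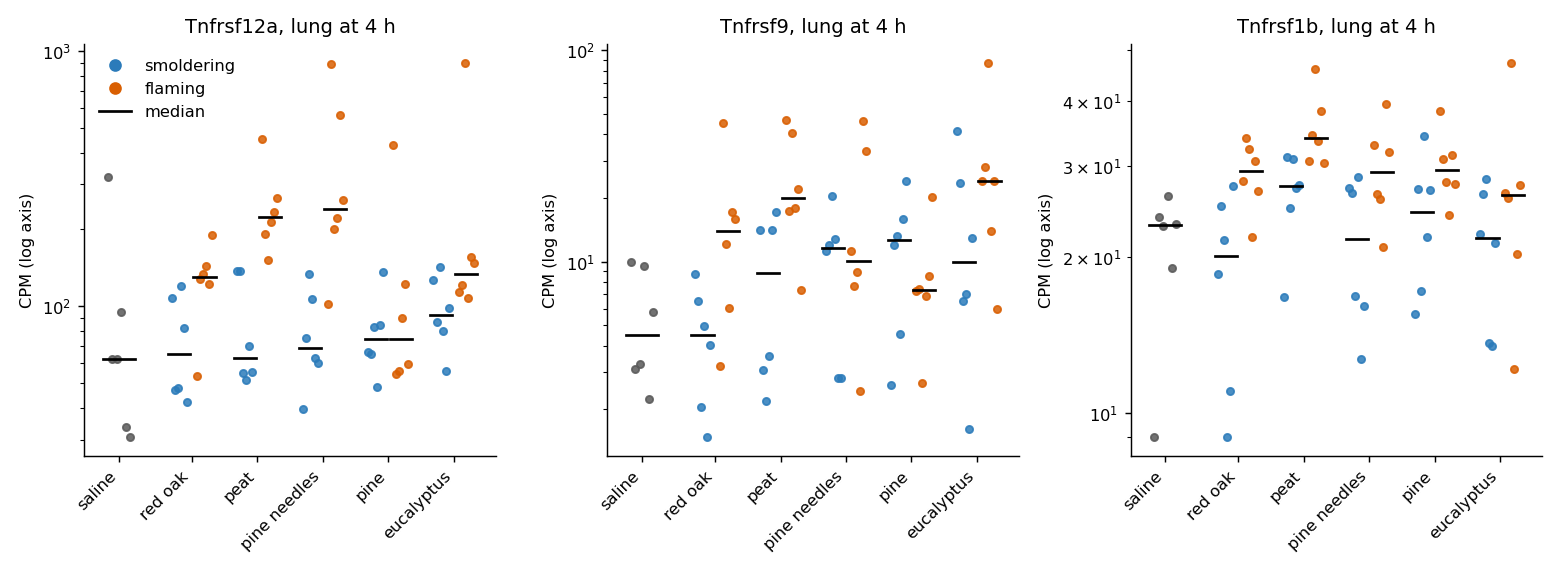
CPM (log axis) of Tnfrsf12a, Tnfrsf9 and Tnfrsf1b at 4 h in saline lungs and, for each fuel, in smoldering (blue) and flaming (orange) lungs; points are animals and black lines medians. For Tnfrsf12a the flaming median lies above the smoldering one except for pine, where they are 74.7 and 74.4 CPM.

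The same comparison called 1 of 32 adaptors (Tnip1, 0.39) and 2 of 11 NF-kB genes (Nfkbib, 0.34, and Nfkb2, 0.67), all higher after flaming, and none of 14 genes known to respond to TNF. Without the 3 lungs of fewest genes, adjusted p was 0.0544, 0.05001 and 0.0973 for Tnip1, Nfkbib and Nfkb2. None of the 8 neutrophil markers was called, and 1 of 7 B cell markers was higher. By edgeR no member depended on the fuel in its flaming effect (0.0207% of all genes called), and none differed among the 10 smokes in the F test (0.609% called). Unadjusted p was under 0.05 for 1 and 5 members, and DESeq2 called 0 in each. In the F test among smokes Tnfrsf9 and Tnfrsf12a had adjusted p of 0.267 and 0.268. At 24 h the flaming against smoldering comparison called 0 of 32 members (0.111% of all genes), with 4 at an unadjusted p under 0.05 and 0 called by DESeq2.

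Before the smoke results at 24 h, the 6 low-detection lungs need their values. They were RedOakFlame replicate 6, EucalyptusFlame replicate 5, PineSmolder replicate 4, EucalyptusSmolder replicate 5, PeatFlame replicate 3 and PineFlame replicate 6, with 9886, 10172, 10886, 11690, 12145 and 12545 genes with a count. In that order Tnfrsf12a was 3926, 1582, 1464, 1149, 1054 and 325 CPM. In 5 of the 6 this exceeded each of the 64 other lungs of 24 h, whose median was 55.6 CPM and highest 583 CPM. Fasl was 371, 134.2, 77.3, 77.4, 27.6 and 67.5 CPM, all above the median of 9.14 CPM in the other lungs. Tnfrsf9 was 10.8, 52.6, 24.8, 41.4, 106.5 and 27.9 CPM, all above the other lungs' median of 2.76 CPM. Tnfrsf1a was 1988, 822, 716, 835, 474 and 372 CPM against a median of 229 CPM. Tnf was low in them: 0, 4.90, 4.13, 5.18, 0 and 3.68 CPM, all under the other lungs' median of 5.92 CPM. A count of 0 in RedOakFlame replicate 6 and PeatFlame replicate 3 allows up to 0.539 and 0.491 CPM (3 counts, counting error only). Cd40 was 0.720 to 28 CPM in these 6 lungs and 11.5 to 335 CPM in the others. The part of RNA quality in these values was not tested.

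**Figure D4:**
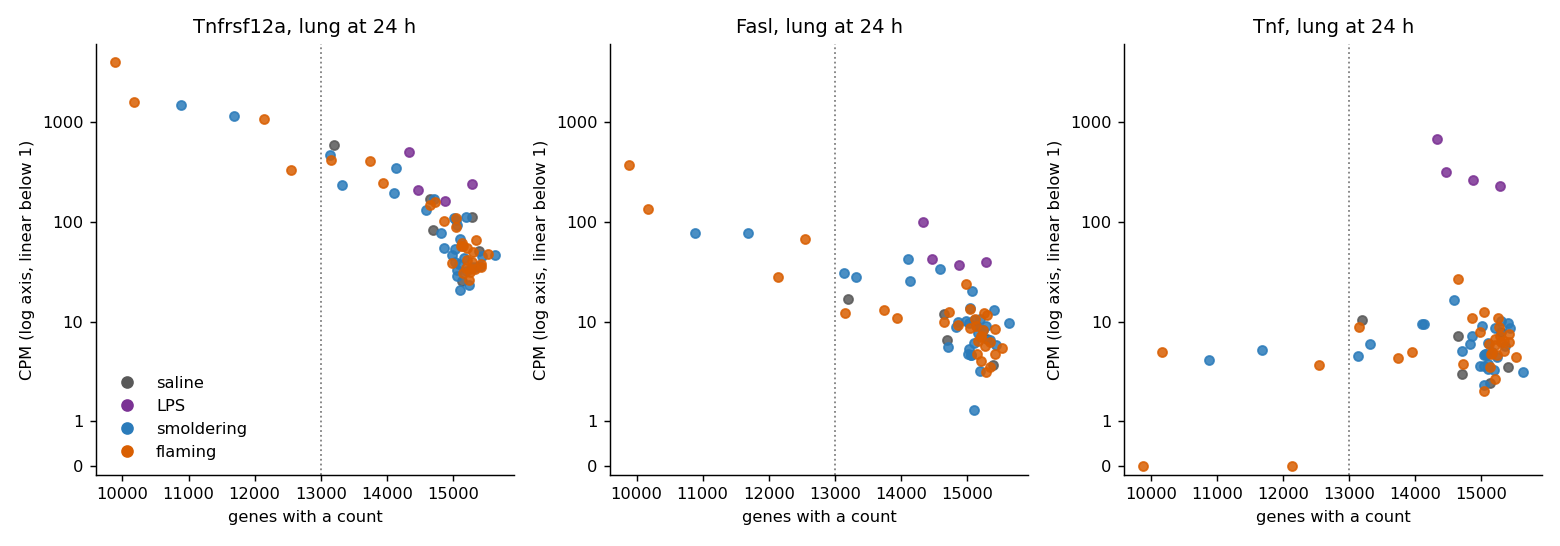
CPM (log axis, linear below 1) of Tnfrsf12a, Fasl and Tnf in each 24 h lung against the number of genes with a count, grey is saline, purple LPS, blue smoldering, orange flaming, and the dotted line marks 13000 genes. The 6 lungs left of the line have 325 to 3926 CPM of Tnfrsf12a and no more than 5.18 CPM of Tnf.

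At 24 h, 2 member calls were made over the 10 smokes (0.187% of all gene tests called). The first was Tnfrsf9 after PeatFlame (0.0692% of all genes called): 29.4, 41.8, 106.5, 25.7, 34.5 and 8.14 CPM in replicates 1 to 6. All 6 lungs stood above the saline range of 2.06 to 7.31 CPM (log2 change 3.31 ± 0.74, adjusted p = 0.0314). Replicate 3, the highest, is a low-detection lung. The change was 2.81 (adjusted p = 0.232) when it alone was left out, and 2.75 (adjusted p = 0.0373) when all 6 low-detection lungs were left out and the spread was estimated anew. The call was also lost with the 24 h lungs alone (adjusted p = 0.107) and without any single saline lung, replicates 1 to 6 giving 0.12, 0.0583, 0.0858, 0.0724, 0.133 and 0.129. It held with DESeq2 (0.00121), DESeq2 size factors (0.0302), no filter (0.0435) and no plate term (0.033). With each probe alone the Tnfrsf9 probes gave 3.36 (adjusted p = 0.0643) and 2.93 (adjusted p = 0.502), neither called. Neutrophil markers were not called after PeatFlame at 24 h (0 of 8, summed 134.4 to 1705 CPM). In the other smokes Tnfrsf9 medians lay between 1.90 and 5.83 CPM, while their low-detection lungs read 10.8 to 52.6 CPM. The change in the PeatFlame effect from 4 h to 24 h was called for none of 32 members by edgeR or DESeq2 (0.0622% of all genes), with 2 at an unadjusted p under 0.05.

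The other call was Fasl after RedOakFlame (1.75% of all genes called), which came from a single lung. The replicates read 11.5, 8.41, 6.99, 4.71, 10.9 and 371 CPM, and only the last, a low-detection lung, lay above the saline range of 3.68 to 17 CPM. The log2 change was 2.79 ± 0.66 (adjusted p = 0.00824) with it and 0.01 (adjusted p = 0.995) without the low-detection lungs. The call was also lost with 24 h lungs alone (adjusted p = 0.187). Tnfrsf12a after RedOakFlame turned from 2.04 ± 0.80 (adjusted p = 0.213) to −1.02 (adjusted p = 0.535) without those lungs. With DESeq2, Tnfrsf12a (2.41, adjusted p = 0.0132) and Tnfrsf1a (0.99, adjusted p = 0.0112) were called after RedOakFlame as well. By edgeR the Tnfrsf1a change also turned, from 0.75 ± 0.30 (adjusted p = 0.245) to −0.53 (adjusted p = 0.417) without the low-detection lungs. Its probes taken alone gave −0.61, −0.01 and 1.12, none called. Leaving out the low-detection lungs gave 3 further calls, all lower after PineNeedlesFlame, with 0.962% of all gene tests called: Tnfrsf12a (−2.01, adjusted p = 0.0358), Tnfrsf14 (−1.30, adjusted p = 0.035) and Tnfrsf19 (−1.03, adjusted p = 0.0496). Tnf stayed between 0 and 26.9 CPM over the 60 smoke lungs of 24 h, and none reached the lowest LPS lung at 227 CPM.

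In heart the family was sparse, and the 15 members tested were compared between each of 4 smokes and saline at 24 h. After RedOakFlame, 2 rose and 1 fell (12% of all genes called, 5.33% upward and 6.69% downward). Tnfrsf1a was 30.8, 34.8 and 36.7 CPM (lowest, median, highest) in saline hearts and 45.7, 50.9 and 61.5 CPM after RedOakFlame, with all 6 above the saline range (log2 change 0.60 ± 0.13, adjusted p = 0.00382). Tnfsf12, the TWEAK ligand, went from 38.3, 45.7 and 57.7 CPM to 50.0, 57.1 and 70.2 CPM, with 3 of 6 above the saline range (0.35 ± 0.11, adjusted p = 0.0412). Tnfsf12 and Tnfsf13 are neighbouring genes with shared transcripts, and whether a probe of one also reads the other was not checked here. Fas fell from 17.2, 28.9 and 59.3 CPM to 16.2, 20.6 and 22.3 CPM, with 1 of 6 below the saline range (−0.73 ± 0.23, adjusted p = 0.0338). The share of members called, 3 of 15, stands beside 12% of all genes.

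The Tnfrsf1a call in heart held when each single saline or RedOakFlame heart was left out (adjusted p 0.00447 to 0.0167). The Fas call was lost without saline replicate 1 (adjusted p = 0.0656), 2 (−0.49, adjusted p = 0.145) or 4 (0.0956), without RedOakFlame replicate 2 (0.0789) or 3 (0.0625), with the compared groups alone (0.0787) and with no filter (0.0526). The Tnfsf12 call was lost without saline replicate 1 (adjusted p = 0.101), 3 (0.0547), 4 (0.093), 5 (0.0823) or 6 (0.054), without RedOakFlame replicate 1 (0.0785), 2 (0.138) or 4 (0.0703), with the compared groups alone (0.0664) and with no filter (0.0678). In the same hearts 5 of 6 fibroblast and smooth muscle markers and 4 of 7 endothelial markers rose, the latter summing to 255 to 422 CPM in saline and 438 to 587 CPM after RedOakFlame. Monocyte markers rose in 2 of 5. Their part in the members' changes was not tested.

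**Figure D5:**
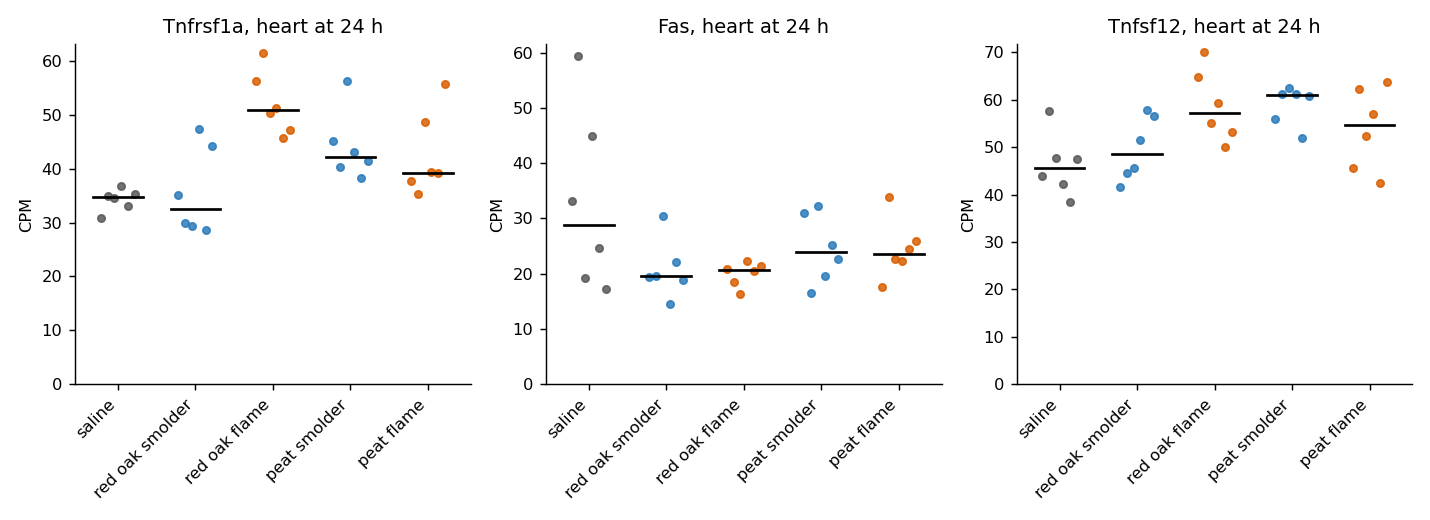
CPM (linear axis from 0) of Tnfrsf1a, Fas and Tnfsf12 in hearts at 24 h, by treatment; points are animals, black lines medians. Tnfrsf1a in the 6 RedOakFlame hearts lies at 45.7 to 61.5 CPM, above the saline hearts at 30.8 to 36.7 CPM.

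None of the 15 members was called after PeatSmolder (4.29% of all genes), PeatFlame (0.0447%) or RedOakSmolder (0.0%) in heart by edgeR. Unadjusted p was under 0.05 for 4, 1 and 1 members, and DESeq2 called 1 (Tnfsf12), 0 and 0. After PeatSmolder, Tnfrsf1a was 38.3, 42.3 and 56.3 CPM, again above all saline hearts in 6 of 6 (log2 change 0.36, adjusted p = 0.0989), and Tnfsf12 changed by 0.35 ± 0.11 (adjusted p = 0.0705). Tnfrsf1a changed by 0.32 (adjusted p = 0.361) after PeatFlame. Fas changed by −0.67 (adjusted p = 0.664) after RedOakSmolder. Whether these effects differ between smokes was not tested. Tnfrsf12a, whose ligand was called after RedOakFlame, read 18.8, 28.1 and 82 CPM there against 22.3, 39.9 and 54 CPM in saline. Tnf lay between 0 and 2.11 CPM in all 30 hearts.

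The saline animals gave both organs, so the family was compared between heart and lung of the same 6 mice. Of 21 members tested 17 were lower in heart and none higher, against 76.5% of all genes called, 41.7% lower and 34.8% higher. The median log2 difference over the members was −2.17. Fasl, Tnf, Tnfrsf14, Tnfrsf19, Tnfrsf22, Tnfrsf4, Tnfrsf9 and Tnfsf13b passed the filter on low counts here but not among hearts alone. They thus entered this comparison through their lung levels. Tnfrsf17 was tested among hearts but not here, although its mean was higher in saline hearts than in saline lungs. The count of 17 lower members, their median and the absence of higher members are thus in part set by the filter. The differences given below for Fasl, Tnf, Tnfrsf19, Tnfrsf22, Tnfrsf9 and Tnfsf13b share this limit. The B cell ligand genes Tnfsf13 (APRIL; −3.09 ± 0.27, adjusted p = 9.89e-08) and Tnfsf13b (−5.66) were both lower in heart. So were Fasl (−5.00), Ltb (−2.97), and Tnf (−1.65, adjusted p = 0.00484). Among receptors, Tnfrsf19 differed by −5.39, Tnfrsf1b by −2.81 and Tnfrsf1a by −2.43. Tnfrsf9 was at 0 in all 6 saline hearts and averaged 3.20 CPM in the lungs, at least 6.85-fold higher than the 0.467 CPM that 3 counts per heart library allow. Tnfsf12 (0.33 ± 0.33) and Fas (0.07 ± 0.29) were not called. The Tnfrsf12a difference (−1.46, adjusted p = 0.0346) became −0.75 (adjusted p = 0.149) with the animal as a block. It was lost without saline animal 2 (−0.57, adjusted p = 0.203), 4 (0.0881) or 5 (0.052), and that of Tnfrsf22 (−1.73, adjusted p = 0.0205) without saline animal 1 (0.0842) or 4 (0.0572). Tnfrsf22 and Tnfrsf26 are closely related copies, so their probes may share reads.

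The 8 members not tested in lung were Cd70, Lta, Tnfrsf13c, Tnfrsf8, Tnfsf11, Tnfsf18, Tnfsf8 and Tnfsf9. All but Tnfsf9 stayed under a mean of 1 CPM in each of the 29 groups. The highest mean among these 7 was 0.901 CPM (Tnfsf18 in heart), and that of Tnfsf9 was 1.10 CPM. Of 3 counts per library, the floor was 0.373 to 0.678 CPM in lung and 0.399 to 0.531 CPM in heart, and these members had too few counts to enter the tests, so no change is reported for them.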

How the data were processed

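RNA of 140 lungs and 30 hearts was profiled on the TempO-Seq platform, in which detector oligos ligate on the transcript; the labels' protocols also name a QuantSeq 3' kit, so the chemistry is stated 2 ways and was not settled here. The authors deposited a table of raw counts per probe; Bowtie and DESeq2 appear in the submitters' processing notes, and the genome build was not given in the sources used here. Each replicate is a separate animal by its title, and within every group at least 13635 genes differed between libraries. Deposited counts were summed per gene symbol and tested with edgeR 4.0.16 in R 4.3.3 (TMM scaling, filterByExpr, trended dispersion, robust quasi-likelihood F test, Benjamini-Hochberg over all genes of the fit). The first fit held 140 lungs with group and plate, the second 30 hearts, the third the hearts and lungs of 6 saline mice. Levels are TMM-scaled CPM, and a call is an adjusted p under 0.05. Standard errors come from the log2 change and its F statistic (change over root F). The procedure was tested on simulated data.

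Members and lists were chosen with earlier results of these data known. Values in each sample are given for Tnf, Tnfrsf12a, Tnfrsf9, members called in any smoke contrast and, per LPS contrast, the 12 called members of smallest p; at most 4 called genes per pathway list were named. Others were named after their values were seen. The saline hearts and lungs come from the same animals by the number in the title, yet deviations of heart and lung from their group means correlated weakly (r from −0.02 to 0.13 over genes, for 6 animals), so the block is given where it changed a call. Alternatives were DESeq2 1.42.0, its size factors in edgeR, no filter, no plate term, each probe alone, one time or the compared groups alone, no low-detection lungs (under 13000 genes with a count), no 4 h lungs of fewest genes, and leaving out single animals. Fits without single LPS, saline or PeatFlame lungs kept the genes and dispersion trend of the full lung fit. The other leave-out fits filtered the genes and estimated the dispersion anew. These were fits without single hearts, saline animals in heart against lung, low-detection lungs, or 4 h lungs of fewest genes, singly or together.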

Additional observations from a re-analysis of the deposited data

Results flagged for a closer look

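Tnf, Tnfrsf12a, Tnfrsf9, Tnfrsf1b and Fasl were screened in 24 lung groups each, and Tnfrsf1a, Fas and Tnfsf12 in 5 heart groups each. In 28 cases, all for Tnf, Tnfrsf12a, Tnfrsf9 or Fasl, 1 library lay far from the rest of its group, where chance gives about 1 in 20 groups, and 15 of the 28 were low-detection lungs of 24 h.

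Tnfrsf12a stood apart in saline replicate 1 at 4 h (322 CPM) and saline replicate 2 at 24 h (583 CPM), which widened the control range of this gene. At 4 h it also did so in EucalyptusFlame replicate 3 (899 CPM) and PineFlame replicate 1 (429.8 CPM). At 24 h it did so in the low-detection lungs RedOakFlame replicate 6 (3926 CPM), EucalyptusFlame replicate 5 (1582 CPM), PineSmolder replicate 4 (1464 CPM), PeatFlame replicate 3 (1054 CPM) and PineFlame replicate 6 (325 CPM).

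Tnfrsf9 stood apart at 4 h in EucalyptusFlame replicate 3 (87.4 CPM), RedOakFlame replicate 2 (45.1 CPM) and PineFlame replicate 6 (20.1 CPM). At 24 h it stood apart in 5 low-detection lungs: PeatFlame replicate 3 (106.5 CPM), EucalyptusFlame replicate 5 (52.6 CPM), PineFlame replicate 6 (27.9 CPM), PineSmolder replicate 4 (24.8 CPM) and RedOakFlame replicate 6 (10.8 CPM).

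Fasl stood apart at 4 h in EucalyptusFlame replicate 3 (31.5 CPM), the lung that was also highest for Tnfrsf12a and Tnfrsf9 in its group, and in PineSmolder replicate 4 (28.6 CPM). At 24 h it did so in LPS replicate 2 (98.9 CPM) and in the low-detection lungs RedOakFlame replicate 6 (371 CPM), EucalyptusFlame replicate 5 (134.2 CPM), EucalyptusSmolder replicate 5 (77.4 CPM), PineSmolder replicate 4 (77.3 CPM) and PineFlame replicate 6 (67.5 CPM).

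Tnf stood apart in saline replicate 6 at 4 h (9.80 CPM), EucalyptusFlame replicate 1 at 24 h (26.9 CPM) and PineFlame replicate 5 at 24 h (10.8 CPM), none of them a low-detection lung.

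The LPS effect on Tnfsf4 differed between 24 h and 4 h by 7.30 on the log2 scale in the test of the difference itself. Tnfsf4 passed the filter on low counts through the LPS lungs of 24 h, so this difference is not free of that filter.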

How the results depend on the processing

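For 94 member contrasts 1546 alternative values were computed: 1426 kept direction and side of the threshold, 5 passed it, 1 reversed (Tnfrsf12a after RedOakFlame at 24 h, −1.02 without low-detection lungs) and the rest fell short of it. Tnfrsf1a after RedOakFlame at 24 h, not in that reversed count, turned from 0.75 to −0.53 without low-detection lungs. Member calls over the 10 smokes at 4 h were 0, but 1 with each probe alone, 7 with the 4 h lungs alone and 1 without low-detection lungs. At 24 h they were 2, but 4 with DESeq2, 4 with its size factors, 1 with each probe alone, 0 with the 24 h lungs alone and 4 without low-detection lungs. Flaming against smoldering at 4 h gave 1 call instead of 3 with DESeq2 size factors and 0 without the 3 lungs of 4 h with fewest genes, a setting chosen after seeing the data, as was leaving out single exposed hearts and the EucalyptusFlame and PineNeedlesFlame lungs among those 3. The LPS effect of 24 h minus 4 h gave 0 instead of 1 with no filter and 3 without low-detection lungs. The F test among smokes at 4 h gave 2 instead of 0 with 4 h lungs alone and 2 without low-detection lungs. In heart, 1 call instead of 3 was left with the compared groups alone and 1 with no filter. Apart from fits with fewer lungs, the cause was not tested. Heart against lung with the animal as replicate block called 16 members instead of 17, and this pairing changed no call except that of Tnfrsf12a. Leaving out single animals gave 7 to 11 calls for LPS at 4 h, 9 to 12 at 24 h, 8 to 11 and 10 to 16 for LPS against the mean smoke at 4 h and 24 h, and 0 to 1 for the LPS difference between times. It gave 1 to 3 for flaming against smoldering at 4 h, 1 to 2 for the smokes at 24 h, 1 to 3 in heart, and 15 to 18 for heart against lung. Saline lungs were left out only where saline was compared; the planned leave-outs of saline in other comparisons were not run, and PeatFlame or LPS lungs were left out there. In heart, each saline and each exposed heart was left out. With 4 LPS animals and saline levels under 3 counts in most libraries, small changes of Tnfsf14 and Tnfsf4 are limited by depth.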
